A study of Mus musculus with 15 samples.

Results

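Recruited and resident nerve-associated macrophages of the punched mouse ear were compared across all genes. The members are 6 of the 15 libraries of the series: 3 titled as recruited sNAM after injury (recsNAM here, "recruited") and 3 titled as sNAM after injury (injsNAM here, "resident"). They were chosen by title and by the matching columns of the deposited table, with no use of measured values. The titles do not spell out the s of sNAM; the design text calls the cells nerve-associated macrophages.

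All mice were CX3CR1-creERT2/gfp R26-tdT/+ per the treatment protocol, whereas the genotype field spells the locus Cxcr1. Every mouse received tamoxifen, the left ear was punched 3 weeks later, and skin was collected 10 days after the punch. Both groups carry the treatment entry tamoxifen + punch, and both were sorted as CD11b+, CD64+ and lineage-negative cells. Resident cells were GFP+/Tomato+ and recruited cells were GFP+/Tomato-. The 15 libraries came from 3 mice, and the labels do not tie a library to a mouse, so whether a resident and a recruited library share an animal is not known. No age, sex or strain background is stated in the labels used. The p-values below treat the libraries as independent and measure only the spread between them, part of which may be technical. The remaining 9 libraries, 3 each of interstitial macrophages of the unpunched (IM) and punched ear (injIM) and of nerve-associated macrophages of the unpunched ear (sNAM), entered the fit and are quoted only where they bear on a value. These groups are named by title: the reporter field gives GFP+/Tomato+ for injIM and GFP-/Tomato- for sNAM, against their titles and the sorting gates, so what the injIM and sNAM values stand for is less sure. The reporter fields of the resident and recruited libraries match their gates.

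The reporters work as a pulse label. Cx3cr1, the receptor for the chemokine fractalkine, drives GFP from one allele and a tamoxifen-dependent Cre from the other, and Cre activity at the time of tamoxifen switches on tdTomato permanently. Long-lived cells that expressed Cx3cr1 during the pulse therefore keep Tomato, while cells that arrive later from unlabelled monocyte precursors and then express Cx3cr1 are GFP+ without Tomato. A resident cell in which Cre did not recombine would also be GFP+/Tomato-. Skin nerves carry such a resident Cx3cr1-expressing population, and TGF-beta signalling, which also shapes microglia, is the pathway named in the title of the study. After tissue injury, monocytes follow ligands of the receptor Ccr2, such as Ccl2 and Ccl7, into the tissue and become macrophages there.

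No gene passed the test for a difference between recruited and resident cells. The values with the smallest p were lower in the recruited libraries for monocyte-attracting chemokines and Il10, for T cell genes that were high in only part of the resident libraries, and for a few genes of low level. They were higher for a set of low-level genes that were at or near 0 in resident libraries, including mast cell and fibroblast genes. The test was limma on log2(value + 100), where a value is a normalized count, that is the authors' read count divided by a factor for the library. It covered the 8656 genes with a mean of 100 or more over the 15 libraries, and a gene was called at a Benjamini-Hochberg adjusted p under 0.05. Of these genes 0 were called (0%), and the lowest adjusted p of limma was 0.112. At an unadjusted p under 0.05 there were 619 genes (7.15%), 409 higher in recruited cells (4.73%) and 210 lower (2.43%). Every recruited library lay above every resident library for 631 genes (7.29%) and below for 554 genes (6.40%), and counts of such non-overlapping genes in the lists below are read against those shares. The shares varied with the mean level over the 6 libraries. They were 11.4% higher and 3.70% lower under 300, 5.22% and 7.67% from 1000 to 3000, and 12.7% and 9.65% over 10000. The background was not matched to the level of list members. All differences are recruited minus resident, as log2 differences with the unadjusted 95% interval, and on this scale the change of low genes is understated. No difference described below as higher or lower passed limma's threshold.

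**Figure D1:**
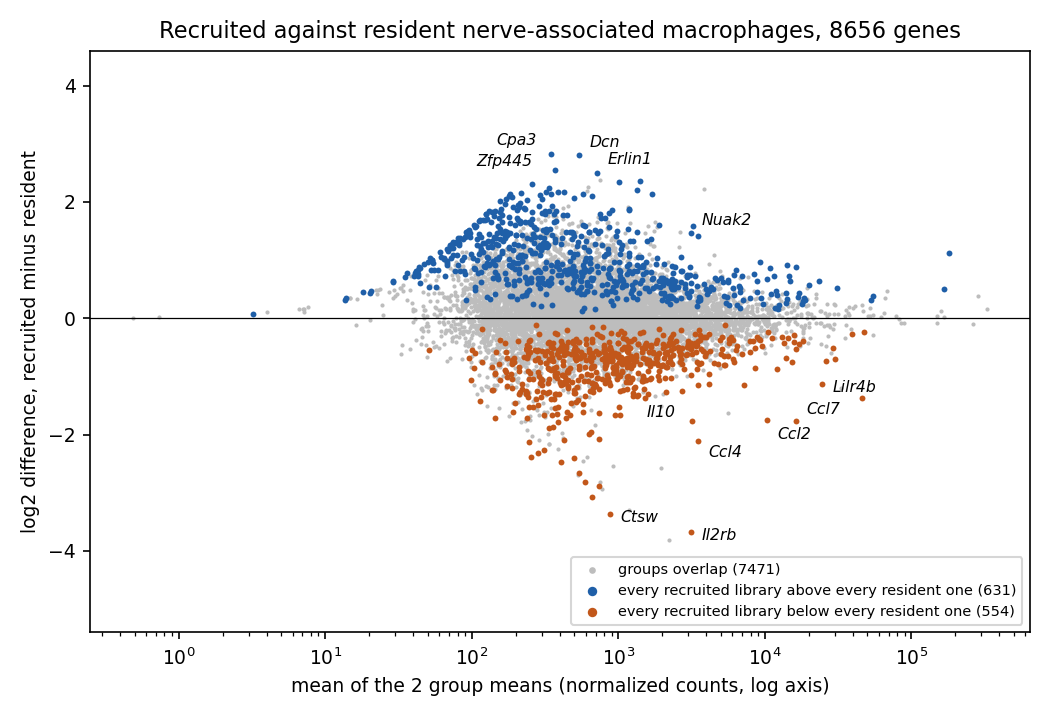
Log2 difference between recruited and resident libraries (y axis) against the mean of both group means in normalized counts (x axis, log scale), 1 point per gene tested. The 631 genes in blue have all recruited libraries above all resident ones and the 554 in orange have them below; Ctsw and Il2rb lie lowest among the genes named, and the chemokine genes Ccl2, Ccl7 and Ccl4 stand below 0 at high levels.

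Count models on the whole reads recovered from the table made more calls. They fit 1 spread per gene over all 15 libraries, whereas the limma fit gave each group its own weight. That weight was 0.311 for resident and 1.67 for recruited libraries, so a shared spread can understate the error of the resident mean. Its part in the calls was not tested, and the DESeq2 p-values quoted below carry this limit. The quasi-likelihood test of edgeR called 6 genes (0.0693%), 4 higher and 2 lower, at an adjusted p of 0.0464 each. DESeq2 called 153 of 8419 genes (1.82%), 92 higher (1.09%) and 61 lower (0.725%), and all 6 edgeR calls were among them. Of the 92 higher DESeq2 calls, 67 had a resident library at 0, as against 12 of the 61 lower calls. The edgeR calls were Alg2, Siglecg, Kctd11 and Dcun1d2 (higher) and St3gal6 and Lilr4b (lower). Kctd11 was 0 in all 3 resident libraries and 142, 292 and 243 normalized counts in the recruited ones. Alg2, which encodes a mannosyltransferase of N-glycan assembly, was 0.88, 0 and 0 in resident and 243, 282 and 159.8 in recruited libraries. Siglecg, an inhibitory sialic acid receptor, was 0, 0 and 0.856 in resident and 178, 82.7 and 59.4 in recruited libraries. Dcun1d2 was 5.28, 2.94 and 2.57 in resident and 226, 395 and 136 in recruited libraries. The 4 higher genes were thus close to 0 in every resident library and at low levels in every recruited one.

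Lilr4b was the only one of the 6 at a high level in both groups. It encodes a receptor of the leukocyte immunoglobulin-like family. Its value was 39414, 30105 and 31629 normalized counts in resident and 17176, 14232 and 14613 in recruited libraries. The groups did not overlap, the log2 difference was -1.13 (interval -1.78 to -0.47), and the adjusted p was 0.257 in limma. Lilrb4a, its close relative, had a mean of 32487 ± 2170.2 (SD, n = 3) in resident and 19543 ± 1068 (SD, n = 3) in recruited libraries, again without overlap. Reads can be shared between such near-identical genes, so each value alone is uncertain. St3gal6, a sialyltransferase of the microglia-like list, was 826, 340.2 and 250.1 in resident and 17.1, 25.7 and 18.3 in recruited libraries, a log2 difference of -2.12 (-3.11 to -1.12).

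The libraries differed in more than the genes named. Recovered depth was 16.9 to 19.5 M reads in resident and 20.4 to 23.4 M in recruited libraries. Genes with at least 1 read numbered 12302, 11046 and 10952 in resident and 15080, 13794 and 14145 in recruited libraries. The difference in means was 2906 genes (exact permutation test, two-sided p = 0.1, the smallest p that 3 against 3 allows), and 2789 genes with all 6 libraries thinned to the lowest depth. Of the tested genes, 4.26%, 6.77% and 8.79% were at 0 in resident libraries and 0.37% to 0.75% in recruited ones. Across genes, the correlation between libraries was 0.76 to 0.77 within resident, 0.93 to 0.96 within recruited and 0.81 to 0.86 between both. Recruited libraries correlated with injIM libraries at 0.92 to 0.94. Resident libraries correlated with injIM at 0.81 to 0.85, which was above the correlation within resident libraries. All of these are descriptions across genes, which are not replicates. The part of depth and of undetected genes in the differences below was not tested.

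The locus that carries the reporters and the macrophage markers were also read. Cx3cr1 (chr9:120048683-120068296, GRCm38, the assembly that mm10 names) lay below the filter on low values. It was 66.9, 0 and 0 normalized counts in resident and 173, 96.7 and 159.8 in recruited libraries, and did not exceed 23.5 in the 6 libraries titled interstitial. Recruited libraries therefore held more Cx3cr1 reads than the resident and interstitial ones, and 2 resident libraries had none. Because GFP and Cre each occupy an allele of Cx3cr1, its reads cannot serve as a check of the GFP gate. The 10 pan-macrophage markers summed to 351746, 449662 and 470068 in resident and 466383, 436812 and 565277 in recruited libraries. Csf1r, the receptor for macrophage colony-stimulating factor, was 58589, 47645 and 41344 in resident and 59226, 59453 and 47119 in recruited libraries (log2 difference 0.17, -0.43 to 0.78). Adgre1, which encodes the F4/80 antigen, was 12859, 9843 and 13197 against 15441, 15170.2 and 17748. Both groups thus carried macrophage markers at high levels, with 2 of the 10 (Adgre1 and Cd14) higher in every recruited library.

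Of the 23 process lists, chemokine ligands and cytokines had the median farthest from 0. Among 34 listed ligands 28 were tested, and 9 lay below every resident library in all recruited libraries against 0 above (background 6.40% and 7.29%). The median log2 difference was -0.59, against 0.07 over all genes tested. At an unadjusted p under 0.05, 8 were lower and 0 higher, and limma called 0. DESeq2 called 8 of the 28 lower and 1 higher (Il12b, at 0 in all 3 resident libraries and in 1 recruited one). The 9 non-overlapping genes were Ccl2, Ccl4, Ccl7, Cxcl1, Cxcl2, Il1a, Il10, Il18 and Tnfsf9. Here and in the lists below, non-overlapping members were singled out after their values were seen. The lists themselves were chosen with earlier results of these data known.

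Ccl2 and Ccl7 attract Ccr2-bearing monocytes and lie next to each other on chromosome 11 (chr11:82035577-82037452 and chr11:82045712-82047525). Ccl2 was 9929, 16474 and 21515 normalized counts in resident and 3230.5, 3922 and 7009.9 in recruited libraries. All resident values were above all recruited ones, and the mean was 3.38-fold higher in resident cells (log2 difference -1.75, -2.63 to -0.87; limma adjusted p 0.215). Ccl7 was 11944, 26938 and 38174 in resident and 5355, 5670.3 and 10158 in recruited libraries (log2 difference -1.76, -2.63 to -0.89; limma adjusted p 0.215). Both passed limma's threshold when recruited replicate 3, the highest recruited library for each, was left out (adjusted p 0.0472 for both), and no other gene did. DESeq2 gave adjusted p-values of 5.91e-05 for Ccl2 and 0.000135 for Ccl7. In the injIM libraries, Ccl2 was 15758 to 21596 and Ccl7 18732 to 20079, above every recruited library for both.

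Ccl3 and Ccl4, macrophage inflammatory chemokines, showed the same order of group means. Ccl4 was 2226, 3571 and 11904 in resident and 582, 848 and 1892 in recruited libraries (log2 difference -2.11, -3.32 to -0.89). Its highest resident library, replicate 3, stood far above the others, and the groups did not overlap. Ccl3 was 1424, 3508 and 4025 in resident and 736, 656 and 1442 in recruited libraries, with an overlap between resident replicate 1 and recruited replicate 3. Ccl12, another Ccr2 ligand, was 397, 1441 and 194 against 118, 152 and 219, so its mean rests on resident replicate 2.

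Cxcl1 and Cxcl2 encode chemokines that attract neutrophils through Cxcr2, and they are neighbours on chromosome 5 (chr5:90891245-90893121 and chr5:90903899-90905938). Cxcl1 was 14529, 23927 and 19755 in resident and 10599, 12434 and 10666 in recruited libraries (log2 difference -0.76, -1.33 to -0.19). Cxcl2 was 30633, 35012 and 47338 in resident and 21762, 18924 and 28146 in recruited libraries (-0.71, -1.42 to 0.00). Neither pair of groups overlapped, and the fold between means was below that of the CC chemokines, at 1.73 for Cxcl1 and 1.64 for Cxcl2 (resident over recruited).

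The promoters of Cxcl1 and Cxcl2 are shown because these neighbouring genes were both lower and NF-kappaB, the factor that many cytokine genes depend on, has a defined motif. The sequences are from RefSeq on GRCm38.p6 and cover the 250 bases before each gene's start, plus strand, chr5:90890995-90891244 for Cxcl1 and chr5:90903649-90903898 for Cxcl2. Capitals mark a run that matches the motif searched, which is GGGA, then any 2 bases, then TTCC, on both strands:
Cxcl1: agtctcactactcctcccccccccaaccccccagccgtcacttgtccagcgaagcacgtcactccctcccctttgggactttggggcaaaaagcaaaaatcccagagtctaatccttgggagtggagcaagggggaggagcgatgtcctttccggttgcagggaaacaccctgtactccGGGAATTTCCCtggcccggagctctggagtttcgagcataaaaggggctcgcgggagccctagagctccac
Cxcl2: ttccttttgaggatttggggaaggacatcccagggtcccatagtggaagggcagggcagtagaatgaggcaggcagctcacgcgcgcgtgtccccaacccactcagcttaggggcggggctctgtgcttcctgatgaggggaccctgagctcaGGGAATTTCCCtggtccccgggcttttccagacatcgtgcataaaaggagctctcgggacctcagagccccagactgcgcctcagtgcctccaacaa
The run, GGGAATTTCCC, is the same in both genes and lies 71 to 61 bases before the start of Cxcl1 and 97 to 87 bases before that of Cxcl2. The motif was in 397 of 32851 promoter windows of this length (1.21%). Of the 9 non-overlapping chemokine and cytokine genes 4 had a promoter entry, and 2 held the motif. It was in 0 of the 8 non-overlapping genes of the NF-kappaB list and in 0 of the 6 with an entry in the immediate-early list. A match describes the letters in this window only.

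Il10, an anti-inflammatory cytokine of macrophages (chr1:131019845-131024970), had one of the clearest separations. It was 4139, 4549 and 6357 in resident and 1250.5, 1144 and 1796 in recruited libraries, with a wide gap between the lowest resident and the highest recruited library. The log2 difference was -1.77 (-2.76 to -0.79), the limma adjusted p 0.227 and the DESeq2 adjusted p 1.1e-06. Tnfsf9, a costimulatory ligand of the TNF family, was 1002, 2263 and 1262 against 493, 733 and 444. Il1a was 2506, 2855 and 5825 against 2223, 1774 and 1584, and Il18 was 748, 731 and 535 against 369, 349 and 393; their intervals included 0.

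Il1b, the highest member of the list and the main inflammasome cytokine, showed no such order. It was 59825, 72912 and 51829.8 in resident and 62958, 53017 and 70328 in recruited libraries (log2 difference 0.02, -0.81 to 0.85). Among the 28 tested ligands, 9 had a log2 difference above 0.

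**Figure D2:**
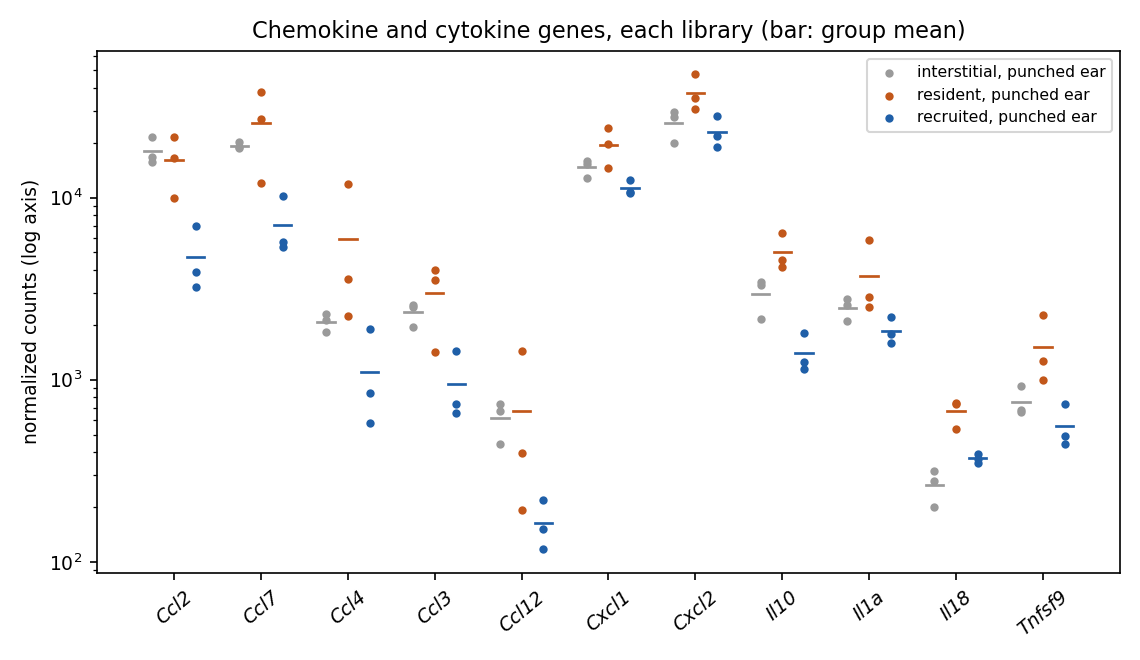
Normalized counts (log y axis) of 11 chemokine and cytokine genes in each library of 3 groups of the punched ear, titled interstitial (grey), resident nerve-associated (orange) and recruited nerve-associated (blue); bars are group means, n = 3. Recruited points lie below all resident points for all of them but Ccl3 and Ccl12, and for Ccl2 and Ccl7 also below the grey points.

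Receptors for these ligands did not follow the list of ligands. Of 27 tested chemokine and cytokine receptors 2 lay higher and 2 lower without overlap (background 7.29% and 6.40%), with a median log2 difference of 0.10. Ccr1 was 8028, 7913 and 12507 in resident and 7308, 6674 and 7206 in recruited libraries, without overlap. Ccr2, the monocyte receptor for Ccl2 and Ccl7, was 1735, 793 and 1843 in resident and 676, 1620.0 and 1118 in recruited libraries. The Ccr2 groups overlapped, with a log2 difference of -0.32 (-2.08 to 1.43), an interval too wide to place recruited cells above or below resident ones.

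Genes downstream of stress and NF-kappaB signalling leaned to lower values in recruited cells. Of 25 tested genes of the immediate-early and dissociation stress list, which respond within minutes to stimulation and to tissue digestion, 7 were lower without overlap and 0 higher (background 6.40% and 7.29%; median -0.30). They were Fosl1, Nr4a1, Btg2, Klf2, Klf6, Dnajb1 and Gadd45b. Nr4a1, a nuclear receptor, was 6159, 4197 and 6062 in resident and 1795, 2759.5 and 4103 in recruited libraries (log2 difference -0.95, -1.86 to -0.05). Zfp36, the highest member, which encodes an RNA-binding protein that destabilises cytokine mRNAs, overlapped at 33354, 30525 and 48012 against 31205, 27225 and 44674. The digestion of the tissue also induces these genes, and its part in the difference was not tested.

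In the list of NF-kappaB targets and survival genes 25 were tested, 7 lower and 1 higher without overlap (background 6.40% and 7.29%). The median was -0.19. Tnfaip3, a feedback inhibitor of NF-kappaB, was 21448, 11592 and 14373 in resident and 8689, 8741 and 7543 in recruited libraries (log2 difference -0.87, -1.58 to -0.17). Serpinb9, an inhibitor of granzyme B, was 2695, 905 and 1212 against 899, 523 and 505, and resident replicate 2 exceeded recruited replicate 1 by only a few counts. Mcl1, the highest member and an anti-apoptotic protein, was 44720.1, 43119 and 41434 against 35116, 36008 and 35559, a separation without overlap at a log2 difference of -0.28 (-0.81 to 0.26). The other lower genes were Bcl2a1a, Bcl2a1b, Cflar and Gadd45b, of which the Bcl2a1 genes are near-identical copies. Ptgs2, the prostaglandin synthase COX-2, was higher, at 4564, 3502 and 5742 against 7595, 9496 and 6229, with a wide interval (0.75, -0.93 to 2.43). Limma called 0 of either list.

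Identity genes of tissue macrophages were mixed. In the microglia-like list 20 were tested, 1 higher and 2 lower without overlap, and 10 had a log2 difference above 0 and 10 below. P2ry12, a purinergic receptor of microglia, was 1224, 837 and 1055 in resident and 550.5, 700.4 and 481 in recruited libraries (log2 difference -0.75, -1.71 to 0.21). Tmem119, another microglial marker, overlapped at 598, 1093 and 1069.6 against 1096, 1734 and 866. Olfml3 was higher, but its symbol is listed more than once and its value is uncertain.

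Of 22 tested genes of the perivascular and interstitial list, 4 were lower and 1 higher without overlap (background 6.40% and 7.29%). The median was -0.31, and 19 had a log2 difference below 0. Cd163, the haemoglobin scavenger receptor (chr6:124304636-124330529), was 2858, 5164 and 3631 in resident and 1322, 2042 and 1306 in recruited libraries (log2 difference -1.25, -2.32 to -0.19; DESeq2 adjusted p 0.0398). Gas6, a bridging ligand for apoptotic cells, was 6302, 5777 and 7693 against 4625, 5437 and 5735. The C-type lectin genes Cd209a and Cd209d were lower too, at means of 1145 and 527 in recruited against 3079 and 1158 in resident cells. Igfbp4 was the higher gene, at 1948, 2462 and 1310.2 against 2685, 2482 and 3846. Mrc1, which encodes the mannose receptor CD206 and had the highest level of the list, overlapped at 20804, 10545 and 12538 against 15536, 13034 and 13468 (interval -0.75 to 0.74).

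Genes of the monocyte list were not uniformly high in the cells labelled as recruited. Of 25 tested, 2 were higher and 0 lower without overlap, and the median was 0.11 (0.07 over all genes). Thbs1, thrombospondin 1 (chr2:118111876-118127133), was the largest in level, at 112020.0, 133346 and 99031 in resident and 247666, 288822 and 210608 in recruited libraries. All recruited values were above all resident ones, by 2.17-fold in means, and the interval was -1.57 to 3.80. The limma fit gave an adjusted p of 0.984 for Thbs1 over 15 libraries, among which the IM libraries ranged from 7392 to 51575, and 0.466 over the 6 libraries alone. Chil3, a secreted chitinase-like protein of monocyte-derived macrophages, was 0 in all 3 resident libraries and 192, 243 and 183 in recruited ones. Ly6c2, the marker of inflammatory blood monocytes, was 215, 172 and 233 in resident and 42.8, 41.3 and 227 in recruited libraries. Timd4, a phosphatidylserine receptor of long-lived resident macrophages, was 3991, 1646 and 647 against 1234, 671 and 582, with overlap. Lyz2, lysozyme, overlapped at 118978, 164074 and 181662 against 142828, 122060.0 and 169322.

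Genes of the TGF-beta pathway, the pathway in the title of the study, included 3 higher and 2 lower without overlap among 26 tested (median 0.11). Among receptors, Tgfbr2 was 5504, 3919 and 4963 in resident and 3024, 3408 and 2611 in recruited libraries (log2 difference -0.65, -1.54 to 0.25). Among signal carriers, Smad2 had a mean of 2365 ± 820.1 (SD, n = 3) in resident and 1294 ± 77.6 in recruited libraries. Among feedback inhibitors, Smad6 was 217, 232 and 0.856 in resident and 757, 914 and 393 in recruited libraries (1.78, 0.48 to 3.07), and the ubiquitin ligase gene Smurf2 was 665, 23.5 and 488 against 842, 953 and 1218. Tgfbi, a matrix protein induced by TGF-beta, was 15246, 24809.9 and 15986 against 26306, 33800.4 and 25766. Id2, a target gene and the highest member, overlapped at 22776, 28610.3 and 40556 against 23785, 21389.7 and 41987 (interval -0.96 to 0.75). The counts of 3 and 2 are near the background of 7.29% and 6.40%, 15 members had a log2 difference above 0 and 11 below, and limma called 0.

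Of 18 tested growth factors of wound repair 4 were higher and 0 lower without overlap (background 7.29% and 6.40%). The median of the list, 0.07, was that of all genes, with 10 members above 0 and 8 below, and limma called 0. Vegfa, the angiogenic factor, was 10152, 11016 and 13689.8 in resident and 17181, 17687 and 19075 in recruited libraries (log2 difference 0.64, -0.57 to 1.84). Grn, progranulin, was 41251, 48566 and 52624 against 55775, 64849.9 and 65837 (0.39, -0.07 to 0.85). Gdf3 was 176, 1333 and 1822 against 2271, 2758 and 3092, with resident replicate 1 far below the others. Inhba, a subunit of activin A, was 1.76, 226 and 873 against 1391, 913 and 2694 (2.34, 0.14 to 4.55).

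In the list of matrix proteins and proteases 27 were tested, with a median of 0.29. Of them 5 were higher and 0 lower without overlap (background 7.29% and 6.40%). Beside Thbs1 these were Mmp14, Timp3, Sdc1 and Tgm2. Sdc1, the heparan sulphate proteoglycan syndecan 1, was 1201, 1589 and 1929 in resident and 3648, 5322 and 5811 in recruited libraries (log2 difference 1.58, 0.38 to 2.79). Mmp14, a membrane-bound collagenase, was 6906, 10569.9 and 8979 against 14000.3, 14589 and 14915. Tgm2, a transglutaminase that crosslinks matrix, was 10335, 15309.7 and 9277 against 18827, 21195 and 23422. Timp3, a protease inhibitor, was at 0 in 2 resident libraries and 25.7 to 103 in recruited ones. Sdc1 was 3604 to 4697 and Mmp14 6713 to 9826 in the injIM libraries, so the range of Sdc1 overlapped the recruited one and that of Mmp14 lay below it.

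**Figure D3:**
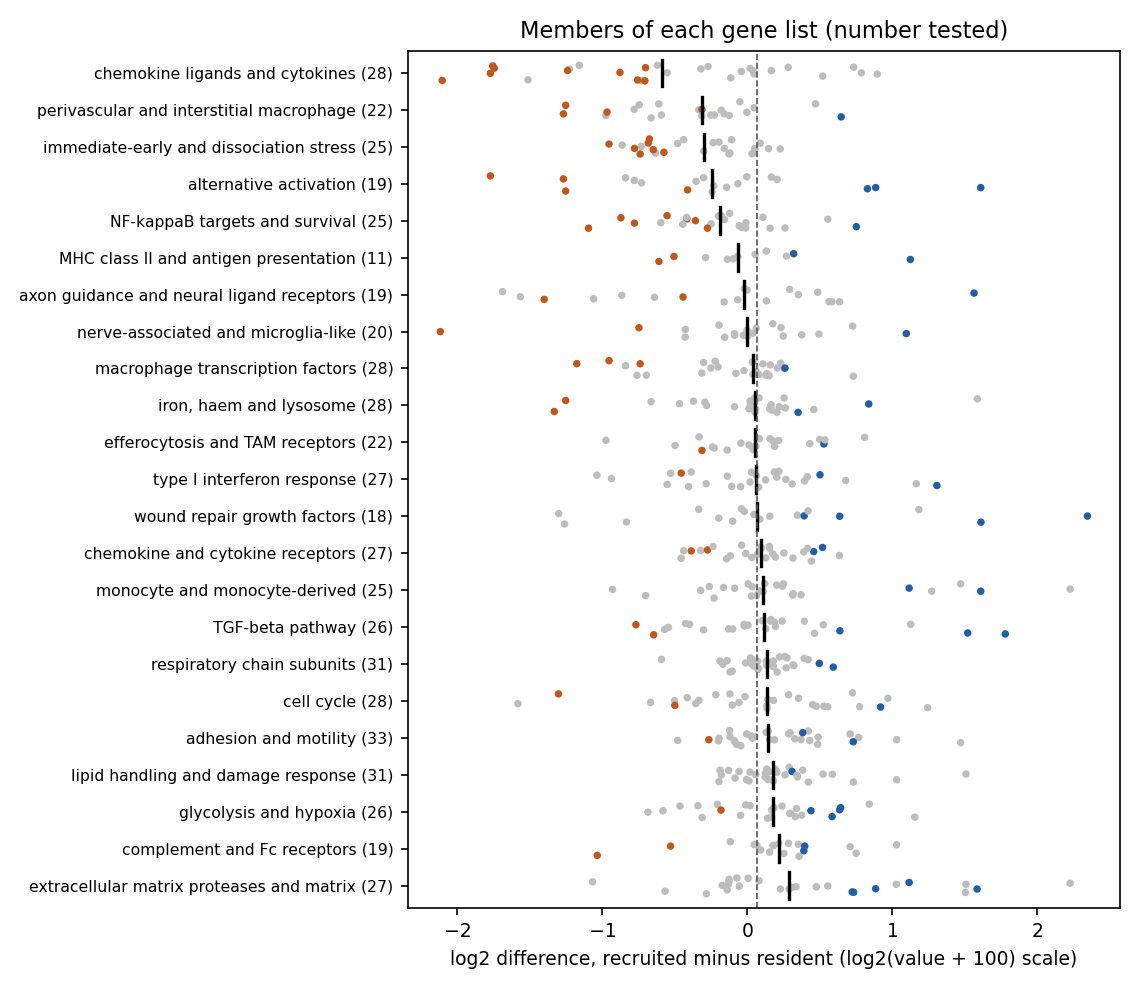
Log2 difference between recruited and resident libraries (x axis) of each tested member of 23 gene lists (y axis, number tested in brackets); blue and orange points have recruited libraries all above or all below the resident ones, grey points overlap, black bars are list medians and the dashed line is the median of all genes tested, 0.07. Chemokine ligands and cytokines have the lowest median, -0.59, and matrix genes the highest, 0.29.

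Lists on metabolism and clearance had medians near that of all genes. Of 31 lipid handling genes 1 (Abca1, a cholesterol exporter) was higher and 0 lower without overlap, with a median of 0.17. Apoe, the lipid carrier, was 217168, 200984 and 321869 in resident and 322137, 240307 and 401419 in recruited libraries (0.38, -0.34 to 1.10). Spp1 and Gpnmb, 2 genes of lipid-associated macrophages, overlapped as well. Glycolysis and hypoxia genes had 4 higher and 1 lower of 26 (median 0.18), among them Pkm, pyruvate kinase, at 13002, 15943 and 14739.8 against 19185, 20355 and 19555. Respiratory chain subunits had 2 higher and 0 lower of 31 (median 0.13). The iron, haem and lysosome list had 2 higher and 2 lower of 28, including Tfrc, the transferrin receptor, at 3196, 1167 and 1303 against 613, 816 and 462. Gusb, a lysosomal glucuronidase, was 5013, 4927 and 3829 in resident and 8079, 8161 and 8415 in recruited libraries (0.84, 0.23 to 1.45).

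Antigen presentation could be read only in part, since 15 of its 26 genes were below the filter. Of the 26 genes 10 were at 0 in all 6 libraries compared. Whether those zeros reflect expression or the counting of reads was not tested. Cd74, a chaperone of class II peptide loading, was 260334, 269879 and 276655 in resident and 235364, 193574 and 347370.0 in recruited libraries, with overlap. Cd83, a maturation marker, was 36618, 36854 and 29276 against 24411, 20442 and 27487, and Cd80, a costimulatory ligand, was 779.8, 499 and 271 against 1291, 845 and 1437. Costimulatory genes thus lay in both directions. Complement and Fc receptor genes had 2 higher and 2 lower of 19 (median 0.22), with C1qb at 47451, 58336 and 67852 against 72018, 59789.5 and 91568. Interferon genes had 2 higher and 1 lower of 27, efferocytosis genes 1 and 1 of 22, and adhesion genes 2 and 1 of 33. Transcription factors had 1 higher and 3 lower of 28, axon guidance genes 1 and 2 of 19, and cell cycle genes 1 and 2 of 28. Alternative activation genes had 3 higher and 4 lower of 19 without overlap (background 7.29% and 6.40%). Their median was -0.24, with 5 members above 0 and 14 below. DESeq2 called 2 of them lower and limma called 0. Of the axon guidance list, Sema4b was 36.1, 113 and 100.2 in resident and 578, 269.9 and 496 in recruited libraries, and DESeq2 called it (adjusted p 0.000443).

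The 15 genes with the smallest unadjusted p among those higher without overlap were mostly at low levels. They were Thumpd3, Erlin1, Nuak2, Dcn, Ints2, Gatb, Zfp445, Mtrex, Aar2, Cpa3, Rab2b, Helz, Abcd3, Zscan22 and Hivep1, with limma adjusted p from 0.215 to 0.226. Nuak2, a kinase of the AMPK family (chr1:132316125-132333488), had the highest level of them. It was 1809.6, 2597 and 831 in resident and 4532, 4246 and 4935 in recruited libraries, without overlap and with a log2 difference of 1.47 (SE 0.34). Mtrex, an RNA helicase of the nuclear exosome, was 146, 331 and 551 against 1478, 1363 and 968. Erlin1, a protein of the endoplasmic reticulum membrane, was 224, 0.981 and 284 against 868, 1799 and 1151. Gatb, a mitochondrial translation protein, was 0, 0.981 and 0 against 199, 271 and 279, and Zscan22, a zinc finger protein, was 0.88, 8.82 and 1.71 against 227, 185 and 296. In the injIM libraries, Gatb was 138 to 173 and Zscan22 was 253 to 303. Among the 6 libraries compared, the resident ones had the larger share of tested genes at 0, and the part of that in these differences was not tested.

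Among the 15 genes with the smallest p that were lower without overlap, T cell genes recurred. Those reported here were Ctsw, Faah, Acap1, Gne, Rnf125, St3gal6, Spats2, Ccl7, Nop58, Il2rb, Ccl2, Cd3g, Thada and Fermt2, with limma adjusted p from 0.112 to 0.226. Ctsw, a cathepsin of cytotoxic lymphocytes (chr19:5465043-5468628), was 2751, 133 and 2324 in resident and 21.8, 1.56 and 20.5 in recruited libraries (log2 difference -3.36, -4.57 to -2.15; limma adjusted p 0.112). Il2rb, the beta chain of the interleukin 2 receptor, was 10588, 528 and 7152 against 95, 289 and 210.4. Resident replicate 2 was the lowest resident library for both. Faah, which degrades endocannabinoids, was 513, 259.8 and 732 against 0, 0 and 28.6 (log2 difference -2.39, -3.32 to -1.45), and in sNAM libraries of the unpunched ear it was 0.963, 0 and 0. Gne, the key enzyme of sialic acid synthesis, was 476, 302 and 857 against 7.01, 49.1 and 11.7. Nop58, a nucleolar protein, was 1543, 966 and 2048 against 350.4, 379 and 444. Thada was 1097, 1257 and 951 against 218, 218 and 193, and Spats2 was 562, 575 and 639.7 against 95, 107 and 60.1, so both were even within each group.

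**Figure D4:**
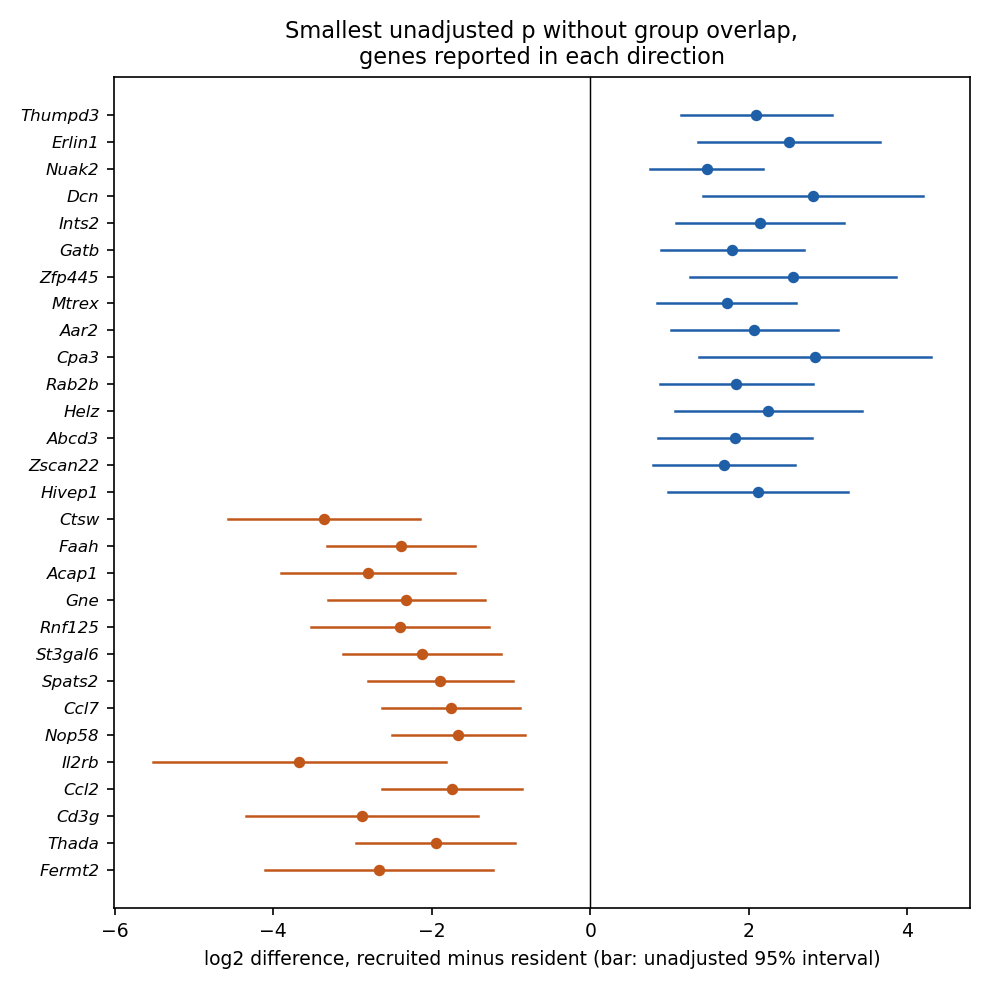
Log2 difference between recruited and resident libraries (x axis) with its unadjusted 95% interval for the 15 higher and 14 of the 15 lower genes with the smallest unadjusted p and no overlap between groups (y axis). Intervals span from -5.52 to -1.82 for Il2rb and from 1.42 to 4.19 for Dcn; none of these genes passed the adjusted threshold.

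Markers of other cell types differed with the groups. Among the 6 libraries, T cell genes were high in resident replicates 1 and 3. Cd3e, a chain of the T cell receptor complex, was 2870.2, 78.4 and 1641 in resident and 4.67, 8.58 and 81.4 in recruited libraries. Cd3g (chr9:44969572-44980431) was 1854, 122 and 2333 against 89.5, 21.1 and 15.4, and Nkg7, a cytotoxic granule protein, was 1907, 0 and 2525 against 10.1, 0 and 39.6. In sNAM libraries, Cd3e was 1264, 49.5 and 1802, so replicate 2 was the low library there too. Over 11 T and NK cell genes, leaving out Il7r and Cd4, which were also read at 1045 or more in IM libraries, the sum was 7667, 361 and 7158 in resident and 179, 52.3 and 243 in recruited libraries. With both included, the 13 genes summed to 12432, 6667 and 13481 in resident and 9185, 9020 and 8478 in recruited libraries, with overlap. Of the 5 tested members, 3 had a log2 difference below 0 and 2 above, and Il7r was higher in every recruited library. Trac and Cd8a, markers of conventional T cells, were at or near 0. The gamma-delta receptor genes Tcrg-C1 (1223, 0 and 1055 against 15.6, 10.1 and 13.9) and Tcrg-V5 (764, 0 and 651 against 5.45, 0 and 13.2) were added after values were seen. Without resident replicate 2, limma called 39 genes (0.451%), 2 higher and 37 lower (0.427%), among them Ctsw, Cd3e, Cd3g, Nkg7 and Il2rb. In 23 of the 37 lower genes, sNAM replicate 2 also lay below sNAM replicates 1 and 3. That library had the lowest depth of the series, 5.64 M recovered reads, and 25.8% of the tested genes at 0. The share of all tested genes with this order was not computed, so the count of 23 cannot be set against a background. The part of T cell RNA in the differences of other genes was not tested.

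Mast cell and fibroblast genes leaned to higher values in recruited libraries. Of 8 tested mast cell genes 4 were higher without overlap (background 7.29%) and 4 overlapped. The mast cell list summed to 628, 255 and 3360 in resident and 4007, 3126 and 4479 in recruited libraries, with overlap. In sNAM libraries the same list summed to 2.89, 31319 and 2687. Cpa3, a mast cell protease (chr3:20215616-20242209), was 0, 0.981 and 4.28 in resident and 984, 297 and 785 in recruited libraries. Kit, the stem cell factor receptor, was 0, 0.981 and 0 against 242, 151 and 155. The fibroblast list summed to 860, 5.88 and 576 in resident and 976, 4999 and 5252 in recruited libraries. Dcn, the matrix proteoglycan decorin, was 175, 0 and 0 against 510.0, 1896 and 673, and Postn, the matrix protein periostin, was 0 in all 3 resident libraries and 151, 547 and 381 in recruited ones. In the injIM libraries, the range was 844 to 981 for Cpa3 and 1750.3 to 2626 for Dcn. In bulk RNA, fewer cells of a type and less RNA per cell cannot be told apart, and the part of these cell types in the matrix genes above was not tested. The dendritic cell list summed to 16471, 11409 and 8124 in resident and 9027, 5877 and 7315 in recruited libraries, with Ccr7, the receptor of migrating dendritic cells, at 11463, 5110.4 and 4440.2 against 6529, 2939.7 and 5339. Sox10, a member of the Schwann cell list, was at 0 in all 6 libraries. The whole Schwann cell list summed to 19204, 20932 and 30498 in resident and 15655, 15889 and 21417 in recruited libraries, with overlap.

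**Figure D5:**
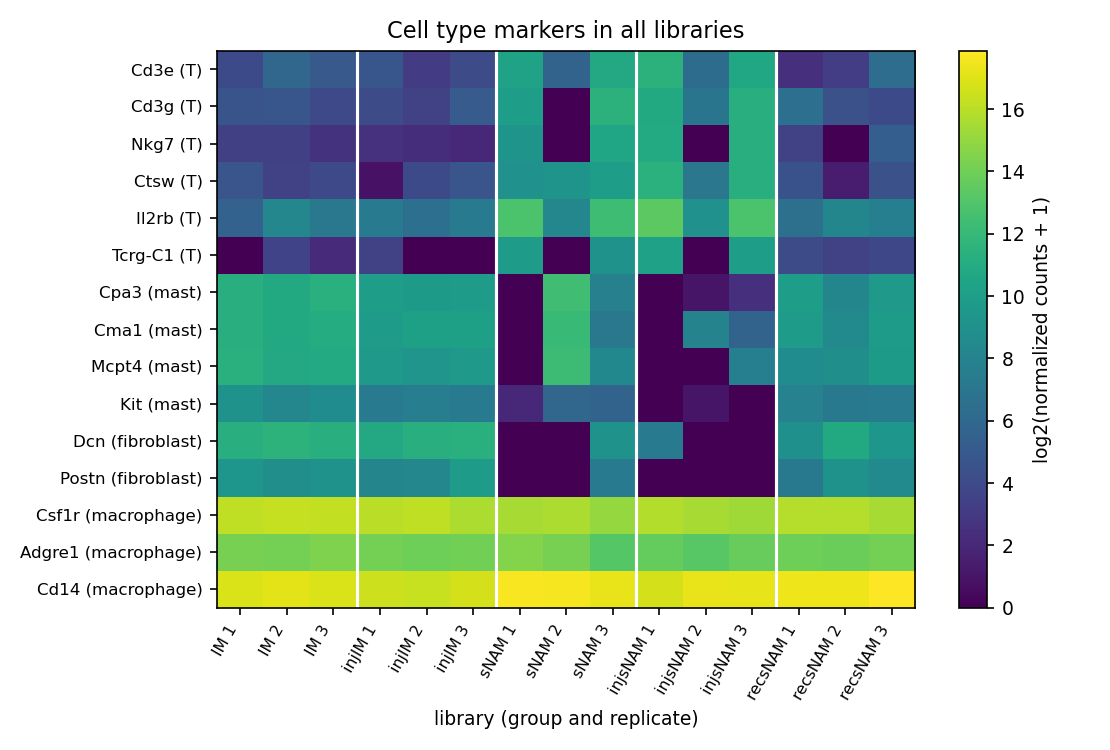
Level of cell type marker genes (rows) in all 15 libraries (columns, group and replicate), as log2(normalized counts + 1) on the colour scale. T cell genes stand out in injsNAM replicates 1 and 3 and in sNAM replicates 1 and 3, mast cell and fibroblast genes are near 0 in several injsNAM libraries, and macrophage genes are high in every library.

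The precision of the comparison set what could be seen. The interval of the log2 difference had a median half-width of 1.03 over the tested genes, from 1.14 for genes with a mean under 300 to 0.658 for those over 10000. It lay within 1 log2 unit on both sides of 0 for 1428 of 8656 genes. Of the tested genes 15.6% had a resident library at 0, as against 1.35% with a recruited one at 0, and among genes under 300 the resident share was 47.3%. The fit gave resident libraries an array weight of 0.311 and recruited ones 1.67. For a gene with a wide interval, a missed threshold does not show that recruited and resident cells were alike.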

How the data were processed

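Libraries were made from 250 pg of RNA of sorted ear skin macrophages with 13 PCR cycles, per the labels' protocols. The tools named are STAR 2.7.2b, DESeq2 1.24.0 under R 3.6.1, cutadapt and bcl2fastq 2.18, with build mm10, per the submitters' processing notes. Which counter, annotation and strand setting were used is not given in the sources used here, so overlapping and antisense genes are uncertain. The authors deposited a normalized signal for each gene, which is its reads divided by a factor for the library. All values were whole multiples, within 0.01, of the smallest value in their library, and division by it recovered the reads (16.9 to 23.4 M in the 6 libraries). Without molecular identifiers, PCR copies are not independent molecules. No pair of libraries within the resident or within the recruited group agreed within read-sampling noise (lowest chi-square per degree of freedom 79.0).

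Computed here, with R 4.3.3 and limma 3.58.1: limma-trend with robust moderation on log2(value + 100), 1 mean and 1 array weight for each of the 5 groups over 15 libraries, genes with a mean of 100 or more. The script was tested on simulated data. Alternatives were other pseudocounts (10 and 500), filters, scalings, a pooled spread, the 6 libraries alone, a replicate block, leave-one-out fits, and edgeR 4.0.16 and DESeq2 1.42.0 on recovered reads. Of 42454 entries, 36134 matched a RefSeq symbol on GRCm38; 4084 carry a repeat suffix, and symbols listed more than once are uncertain. Named genes are the 15 in each direction with the smallest unadjusted p and no overlap, the highest or singled-out members of 23 process and 12 marker lists, and Cx3cr1. A few list members and 1 of these genes are not reported here. The comparison and the lists were chosen with earlier results of these data known.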

Additional observations from a re-analysis of the deposited data

How the results depend on the processing

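Limits. The count of called genes was 0, and stayed 0 with a pseudocount of 10, a filter at a mean of 500, the 6 libraries alone, TMM or total-read scaling. It was 1 with a pseudocount of 500 (Faah, adjusted p 0.0479), 2 with 1 pooled spread, 12 of 23686 genes with no filter (8 higher, 4 lower), 6 with edgeR and 153 with DESeq2; the cause was not tested. Leaving out 1 library in turn gave 0 to 39 genes: 39 without injsNAM replicate 2, 2 (Ccl2 and Ccl7) without recsNAM replicate 3, and 0 without any of the other 4. The difference in genes detected was 2356 at 10 or more reads and 2536 to 3341 with a library left out. The median of all genes ranged from -0.04 (DESeq2) to 0.15 (pseudocount of 10).

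The replicate block also gave 0 calls. The labels do not say that a number marks a mouse, and deviations from the group means correlated at 0.15, 0.08 and 0.19 for replicates 1, 2 and 3, so the numbers were not taken to pair the samples; all 6 libraries correlated best with the library of their own number, a hint from the data and not from the design.

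A few genes near 0 changed sign, and none of them was called under any of these settings. With TMM scaling the log2 difference was 0.038 for Mrc1, 0.029 for Atp5b and 0.040 for Nrp2; with total-read scaling it was 0.0069 for Mrc1 and 0.00948 for Nrp2; with edgeR 0.014 for Atp5b and 0.061 for Nrp2; and with DESeq2 0.024 for Nrp2. With 1 library left out, the range was -0.21 to 0.28 for Mrc1, -0.091 to 0.14 for Atp5b, -0.14 to 0.23 for Nrp2, -0.45 to 0.72 for Irf7 and -0.40 to 0.12 for Id2. It was -0.10 to 0.15 for Il1b, -0.33 to 0.0747 for Zfp36, -0.27 to 0.038 for Lyz2 and -0.33 to 0.089 for Cd74.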
